A study of Mus musculus with 36 samples.

Results

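The Slc22 genes encode organic ion transporters, carriers of the plasma membrane that move drugs, toxins, metabolites and nutrients into and out of the kidney tubule cell. The 9 genes described here are Slc22a2, Slc22a4, Slc22a5, Slc22a6, Slc22a7, Slc22a8, Slc22a12, Slc22a13 and Slc22a19. They were taken by symbol from the 26 Slc22 genes among the 53715 genes that were counted. The rule uses no measured value, although the 9 were proposed with earlier results of these data known. The data are counts of messenger RNA from the kidneys of 36 mice, in 4 groups of 9. STZ-cKOt mice and PBS-cKOt mice carried Bmal1 lox/lox with the Pax8-rtTA and LC1 transgenes, which delete Bmal1 in the renal tubule under doxycycline. STZ-control mice and PBS-control mice were Bmal1 lox/lox littermates, for which the labels name neither transgene. All 36 mice received doxycycline at 2 mg/ml in the drinking water for 2 weeks, starting when they were 8 weeks old. From 1 week after its end, STZ mice received streptozotocin (STZ), a toxin of the pancreatic beta cell that produces type 1 diabetes, at 50 mg/kg on each of 5 days, and PBS mice received the vehicle. Tissue was collected at zeitgeber time 9, counted in hours since lights on, when 8 weeks had passed since the last injection. The Pax8 promoter drives the deletion along the tubule, so vessels, glomeruli and interstitial cells in the same libraries are outside its main target. Transgenes and deletion were carried together and cannot be told apart. The labels give no sex. In all 36 libraries Y-linked genes summed to between 114 and 252 counts per 1 M reads. Xist, a transcript of female cells, stood at 0.426 or less, so the reads are those of male tissue.

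In the proximal tubule, organic anion transporters of the basolateral membrane take up anions from the blood in exchange for dicarboxylates, and organic cation transporters take up cations down the membrane potential. Carriers of the brush border then secrete these compounds into urine, or, as for urate and carnitine, bring them back from it. Expression of several Slc22 genes differs between male and female rodents.

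Each library held between 16.9 M and 22.3 M reads assigned to genes. Levels are given as CPM, counts per 1 M reads, on libraries scaled by TMM. The count of Arntl, the gene that encodes BMAL1, was examined first. It stood between 13.0 and 17.1 CPM in STZ-cKOt and between 12.9 and 17.4 CPM in PBS-cKOt, against 1.18 to 2.64 CPM in 8 of the 9 STZ-control libraries and 1.09 to 2.40 CPM in PBS-control. The count covers the whole gene, exons outside the deletion included, so its level does not show the deletion itself. In the library labelled STZ-control 2, Arntl stood at 13.4 CPM and Dbp at 22.1 CPM. Dbp is a target of the clock, and stood between 17.5 and 33.1 CPM in STZ-cKOt, against 97.1 to 135 CPM in PBS-control. Ciart stood at 1.95 CPM in the library labelled STZ-control 2, against 18.2 to 32.5 CPM in the other STZ-control libraries. STZ-cKOt held 1.23 to 3.62 CPM of it. Nfil3 stood at 11.97 CPM, against 1.77 to 4.78 CPM in those other libraries and 11.4 to 27.3 CPM in PBS-cKOt. It lay below every STZ-cKOt value. The Arntl, Dbp, Ciart and Nfil3 counts of the library go against its genotype label, while some other values do not. It scored 13.5 on the first principal component, where the cKOt libraries lay between −29.2 and −9.1 and the other control libraries between 7.1 and 31.0, and its Slc22a5 stood at 241 CPM, above every cKOt library. Its Slc22a8, at 211 CPM, and its Slc22a4, at 59.8 CPM, were the lowest of its group. Both lay within the PBS-cKOt ranges and above every STZ-cKOt library. The library was kept, and results of the 9 Slc22 genes that rest on it are given with and without it. Results of other genes are given with it only. STZ-control 7 and 8 and PBS-cKOt 1 and 3 had the 4 highest scores on the second principal component, which held 14% of the variance, and the 4 lowest slopes of log2 CPM on exon length. Results that they decide are named.

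All 9 genes passed the filter on low counts and were tested with edgeR among 15637 genes. In STZ mice, 6 of the 9 were lower in cKOt than in control kidneys and none was higher, while 10.1% of all tested genes were lower and 19.6% were called in either direction. In PBS mice, 4 of the 9 were lower in cKOt and 1 was higher, against 12.5% of all tested genes lower, 10.9% higher and 23.4% in either direction. Slc22a8, Slc22a5, Slc22a4 and Slc22a6 were lower in cKOt under both treatments. Between treatments the calls were fewer. Within cKOt kidneys 4 of the 9 were lower with STZ, against 5.63% of all tested genes lower and 11.6% in either direction, and within control kidneys 2 of the 9 were lower, against 5.93% lower and 12.3% in either direction. The median log2 fold change of the 9 genes was −0.29 for cKOt against control in STZ mice, −0.02 for the same in PBS mice, −0.27 for STZ against PBS in cKOt mice and −0.10 in control mice. The medians of all tested genes lay between −0.01 and 0.00. In a whole kidney, fewer cells of a type and less RNA per cell cannot be told apart.

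**Figure D1:**
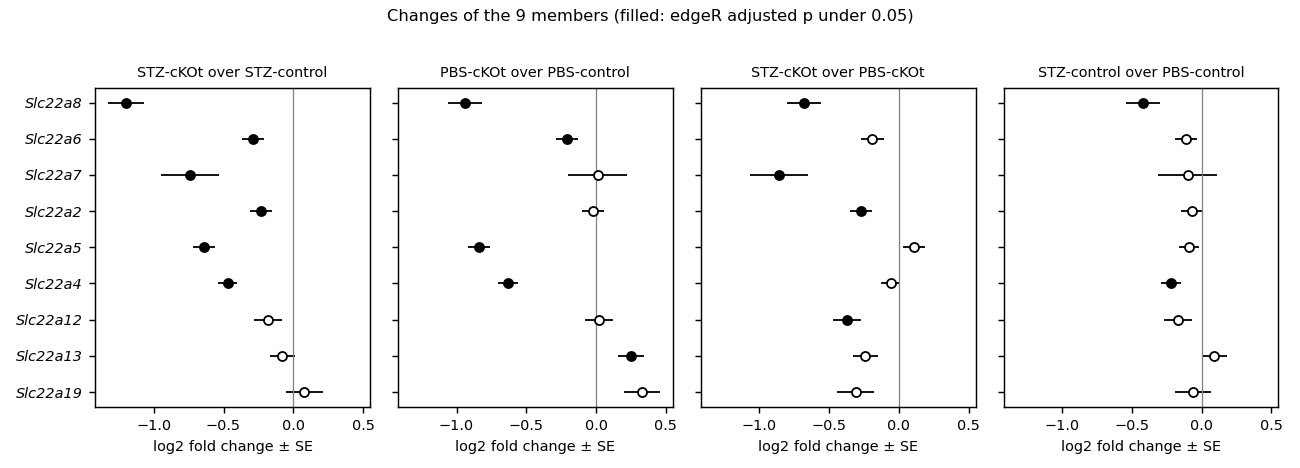
Log2 fold change ± SE of the 9 Slc22 genes in the 4 pairwise contrasts, tested with edgeR over 36 libraries; filled points had an adjusted p under 0.05 and open points did not. Slc22a8 lay lowest or next to lowest in each panel, between −0.42 and −1.20, and the filled points lay below 0 except for Slc22a13 in PBS-cKOt over PBS-control.

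The start regions of the 4 genes that were lower in cKOt under both treatments are printed because these genes moved in the same direction, and Bmal1 acts on promoters through E-boxes. Each sequence is the 250 bases before the start site in RefSeq on GRCm38.p6, written in the direction of the gene. They are chr19:8592932-8593181 on the plus strand for Slc22a8, chr19:8617746-8617995 on the plus strand for Slc22a6, chr11:53891704-53891953 on the minus strand for Slc22a5 and chr11:54028105-54028354 on the minus strand for Slc22a4. Capitals mark exact matches to one of 7 motifs, and a sequence without capitals holds none.

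Slc22a8: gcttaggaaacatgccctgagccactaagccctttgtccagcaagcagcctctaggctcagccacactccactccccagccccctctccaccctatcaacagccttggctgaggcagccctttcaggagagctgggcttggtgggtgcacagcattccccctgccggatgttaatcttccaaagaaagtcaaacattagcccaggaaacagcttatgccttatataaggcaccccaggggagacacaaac
Slc22a6: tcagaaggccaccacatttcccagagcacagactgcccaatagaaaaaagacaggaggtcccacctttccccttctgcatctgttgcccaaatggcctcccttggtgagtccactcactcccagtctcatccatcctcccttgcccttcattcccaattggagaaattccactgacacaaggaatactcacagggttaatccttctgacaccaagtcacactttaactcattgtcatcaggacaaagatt
Slc22a5: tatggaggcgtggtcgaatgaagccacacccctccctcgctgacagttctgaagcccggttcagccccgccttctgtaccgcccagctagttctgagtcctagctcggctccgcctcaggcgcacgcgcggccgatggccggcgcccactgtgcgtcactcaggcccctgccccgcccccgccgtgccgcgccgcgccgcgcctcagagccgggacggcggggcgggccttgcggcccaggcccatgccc
Slc22a4: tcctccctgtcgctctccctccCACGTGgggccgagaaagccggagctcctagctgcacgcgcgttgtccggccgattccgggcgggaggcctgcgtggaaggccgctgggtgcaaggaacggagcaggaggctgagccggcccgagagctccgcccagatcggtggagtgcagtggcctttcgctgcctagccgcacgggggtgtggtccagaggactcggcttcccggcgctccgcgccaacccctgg

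The motifs were searched on both strands of the 300 bases from 250 before to 50 after the start. They were CACGTG, the canonical E-box bound by CLOCK and BMAL1, its variant CACGTT, TTATGTAA and TTACGTAA, 2 forms of the D-box, CAAAGTCCA, a site of HNF4, TAGGTCA, a site of REV-ERB and ROR, and AGAACA, a site of steroid receptors. Of the 9 genes, 8 had a promoter in the table. CACGTG was found in Slc22a4 alone among the 8, with its first base at position −228, and 7.24% of all 27025 promoters held it. AGAACA was found in Slc22a19 on the opposite strand at −170, against 19% of all promoters. The other 5 motifs were found in 0 of the 8, and in between 0.107% and 4.77% of all promoters. A match describes letters and is no evidence of binding, and Slc22a8, Slc22a6 and Slc22a5 had no match to these motifs in this window. A further planned motif, GTTAAT, was left out of the search. Its letters stand, unmarked, in the printed sequences of Slc22a8 and Slc22a6, and its share of all promoters was not counted. The RefSeq start of Slc22a8 lies inside the gene as GENCODE M21 draws it, which begins at 8591254.

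Slc22a8 (ENSMUSG00000063796, chromosome 19, 8591254 to 8611835, GRCm38) encodes Oat3, a basolateral uptake carrier of organic anions such as diuretics, antibiotics and uremic toxins. It had the lowest log2 fold change of the 9 genes in both genotype contrasts. Its lowest, median and highest values were 99.7, 145 and 192 CPM in STZ-cKOt, against 211, 326 and 457 CPM in STZ-control. In PBS mice they were 156, 220.3 and 314 CPM in PBS-cKOt, against 369, 419 and 539 CPM in PBS-control. Every cKOt library lay below every control library of the same treatment, so neither pair of groups overlapped. The level was 2.29-fold lower in STZ-cKOt, a log2 fold change of −1.20 ± 0.13 (SE, n = 9 each; edgeR adjusted p = 1.22e-09). In PBS-cKOt it was 1.92-fold lower, −0.94 ± 0.12 (edgeR adjusted p = 1.90e-07). Without the library labelled STZ-control 2, which held the 211 CPM, the contrast in STZ mice was −1.26 (edgeR adjusted p = 1.57e-10). Slc22a8 was also lower with STZ in each genotype, 1.60-fold in cKOt (−0.68 ± 0.12, edgeR adjusted p = 2.47e-04) and 1.34-fold in control kidneys (−0.42 ± 0.12, edgeR adjusted p = 0.0209). Here the groups overlapped, with 6 of 9 STZ-cKOt libraries below every PBS-cKOt library and 7 of 9 STZ-control libraries below every PBS-control library. Without the library labelled STZ-control 2 the second of these was −0.36 (edgeR adjusted p = 0.0460).

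Slc22a6 (ENSMUSG00000024650, chromosome 19, 8618039 to 8628299) encodes Oat1, the basolateral exchanger that takes up p-aminohippurate. It lies next to Slc22a8 on the same strand. Its lowest, median and highest values were 698, 767 and 990.3 CPM in STZ-cKOt, against 761, 992 and 1133 CPM in STZ-control. They were 729, 882 and 1072 CPM in PBS-cKOt, against 855, 1055 and 1243 CPM in PBS-control. The groups overlapped in both pairs, although 9 of 9 STZ-cKOt libraries lay below the STZ-control median and 8 of 9 PBS-cKOt libraries below the PBS-control median. Slc22a6 was 1.22-fold lower in STZ-cKOt (−0.29 ± 0.08, edgeR adjusted p = 0.00440) and 1.16-fold lower in PBS-cKOt (−0.21 ± 0.08, edgeR adjusted p = 0.0362). The second call was close to the threshold. It was lost without filtering on low counts (edgeR adjusted p = 0.101), in a fit to the 2 groups alone (0.0531), and when any 1 of PBS-control 3, 5, 6, 8 or 9, PBS-cKOt 4, 6, 8 or 9 or STZ-cKOt 7 was left out (0.0507 to 0.102). STZ against PBS gave −0.19 ± 0.08 in cKOt (edgeR adjusted p = 0.106) and −0.11 ± 0.08 in control kidneys (0.366), neither past the threshold. The first passed when PBS-cKOt 8 or STZ-cKOt 6 was left out (0.0461 and 0.0319).

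Slc22a7 (ENSMUSG00000067144, chromosome 17, 46432183 to 46438457) encodes Oat2, an organic anion transporter of liver and kidney. Its coefficient of variation among mice was 31.1% in STZ-cKOt, against 33.4% in STZ-control, while PBS-cKOt had 18.8% and PBS-control 26.1%. The value in STZ-control was 13.8% without STZ-control 9, below those of Slc22a8 (24.4%) and Slc22a19 (15.2%) in the same 8 libraries. Its lowest, median and highest values were 63.1, 94.8 and 174 CPM in STZ-cKOt, against 34.5, 191 and 241 CPM in STZ-control. In PBS mice they were 122, 194 and 244 CPM in PBS-cKOt, against 131, 171 and 272 CPM in PBS-control. All 9 STZ-cKOt libraries lay below the median of each of the other groups that STZ-cKOt was set against, but the groups overlapped. Slc22a7 was 1.67-fold lower in STZ-cKOt than in STZ-control (−0.74 ± 0.21, edgeR adjusted p = 0.00897) and 1.81-fold lower than in PBS-cKOt (−0.86 ± 0.21, edgeR adjusted p = 0.00504). In PBS mice cKOt against control gave 0.01 ± 0.21 (edgeR adjusted p = 0.973), and in control kidneys STZ against PBS gave −0.10 ± 0.21 (0.783). One library, STZ-control 9, held 34.5 CPM, where the other 8 of its group held between 149 and 241 CPM. Without it the contrast of genotypes in STZ mice was −0.88 (edgeR adjusted p = 3.69e-05), and STZ against PBS in control kidneys turned to 0.03 (edgeR adjusted p = 0.909).

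Slc22a2 (ENSMUSG00000040966, chromosome 17, 12584132 to 12628488) encodes Oct2, the basolateral carrier by which the tubule takes up cations such as metformin and creatinine. It stood at 250.1, 291 and 373 CPM in STZ-cKOt (lowest, median and highest), against 262, 354 and 437 CPM in STZ-control. The values were 323, 352 and 426 CPM in PBS-cKOt, against 311, 374 and 442 CPM in PBS-control. STZ-cKOt was the low group, and 7 of its 9 libraries lay below every PBS-cKOt library. Slc22a2 was 1.21-fold lower in STZ-cKOt than in PBS-cKOt (−0.27 ± 0.08, edgeR adjusted p = 0.0153) and 1.17-fold lower than in STZ-control (−0.23 ± 0.08, edgeR adjusted p = 0.0338). In PBS mice cKOt against control gave −0.02 ± 0.08 (edgeR adjusted p = 0.896), and STZ against PBS in control kidneys gave −0.07 ± 0.08 (0.618). Without STZ-control 7 and 8 and PBS-cKOt 1 and 3 both calls were lost, at −0.22 (edgeR adjusted p = 0.0553) and −0.16 (0.150). The call against STZ-control was also lost without filtering on low counts (0.0794), in a fit to the 2 groups alone (0.0781) and when any 1 of STZ-control 4, 6, 7 or 8 or STZ-cKOt 1, 3, 4, 7, 8 or 9 was left out (0.0505 to 0.0971).

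**Figure D2:**
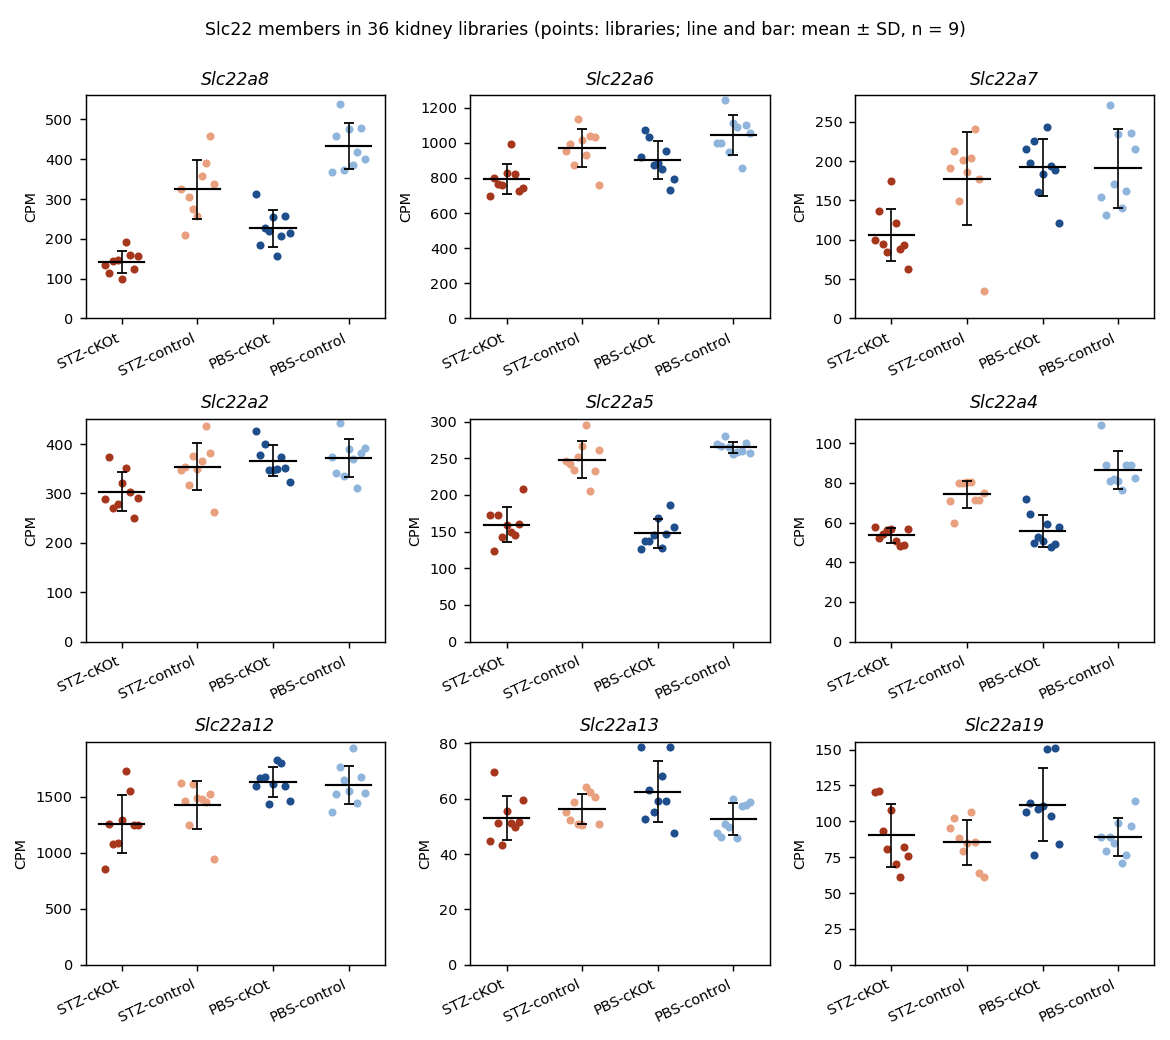
CPM of each of the 9 Slc22 genes in the 36 kidney libraries, on axes from 0; points are libraries, and the line and bar are the mean ± SD of 9 libraries per group. Slc22a8 stood at 141 ± 27.2 CPM in STZ-cKOt and 433 ± 58.0 CPM in PBS-control, and Slc22a5 at 265 ± 7.74 CPM in PBS-control, the narrowest group in relative terms.

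Slc22a5 and Slc22a4 encode the carnitine and ergothioneine transporters of the apical membrane, and both fell in cKOt kidneys. Slc22a5 (ENSMUSG00000018900, chromosome 11, 53864542 to 53891660) encodes Octn2, which recovers filtered carnitine together with sodium and whose loss causes systemic carnitine deficiency. Its lowest, median and highest values were 123, 159.6 and 209 CPM in STZ-cKOt, against 205, 246 and 295 CPM in STZ-control. They were 127, 146 and 187 CPM in PBS-cKOt, against 256, 265 and 279.7 CPM in PBS-control. The PBS groups stood clear of each other, and in STZ mice 8 of 9 cKOt libraries lay below every control library. The exception was STZ-cKOt 9 at 209 CPM, above STZ-control 7 at 205 CPM. Slc22a5 was 1.56-fold lower in STZ-cKOt (−0.64 ± 0.08, edgeR adjusted p = 1.83e-08) and 1.79-fold lower in PBS-cKOt (−0.84 ± 0.08, edgeR adjusted p = 2.17e-11). STZ against PBS gave 0.11 ± 0.08 in cKOt (edgeR adjusted p = 0.405) and −0.09 ± 0.07 in control kidneys (0.442). With STZ, then, the level of Slc22a5 was not shown to differ in either genotype.

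Slc22a4 (ENSMUSG00000020334, chromosome 11, 53983123 to 54028090) encodes Octn1, a transporter of the antioxidant ergothioneine. It stood at 48.0, 54.3 and 57.9 CPM in STZ-cKOt (lowest, median and highest), against 59.8, 75.2 and 80.3 CPM in STZ-control. In PBS mice the values were 47.9, 52.8 and 71.7 CPM in PBS-cKOt, against 76.2, 82.7 and 109 CPM in PBS-control. Neither pair overlapped, and the lowest STZ-control value, 59.8 CPM, came from the library labelled STZ-control 2. Slc22a4 was 1.39-fold lower in STZ-cKOt (−0.47 ± 0.07, edgeR adjusted p = 2.89e-06) and 1.55-fold lower in PBS-cKOt (−0.63 ± 0.07, edgeR adjusted p = 7.20e-09). Without the library labelled STZ-control 2 the first was −0.51 (edgeR adjusted p = 6.06e-07). Of all tested genes, 3.5% did not overlap between genotypes in STZ mice, 1.64% with cKOt lower, and 5.12% did not in PBS mice, 2.72% with cKOt lower. The members without overlap were Slc22a8 and Slc22a4 in STZ mice, and these 2 with Slc22a5 in PBS mice. None of the 9 genes had groups without overlap between STZ and PBS, against 0.876% of all tested genes in cKOt and 1.22% in control kidneys.

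Slc22a4 was 1.17-fold lower with STZ in control kidneys (−0.22 ± 0.07, edgeR adjusted p = 0.0357), while in cKOt kidneys STZ against PBS gave −0.06 ± 0.07 (0.645). The call in control kidneys was lost without the library labelled STZ-control 2 (−0.19, edgeR adjusted p = 0.0790), and when any 1 of PBS-control 1, 2, 7 or 8 or STZ-control 1, 7 or 8 was left out instead (0.0513 to 0.110). It was also lost without filtering on low counts (0.0851) and without the 4 libraries that stood apart (0.0735).

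Slc22a12 (ENSMUSG00000061742, chromosome 19, 6535845 to 6543032) encodes Urat1, the urate exchanger of the brush border. It had the highest CPM of the 9 genes, with a lowest, median and highest value of 853, 1248 and 1731 CPM in STZ-cKOt, against 947, 1486 and 1620.2 CPM in STZ-control. The values were 1436, 1613 and 1832 CPM in PBS-cKOt, against 1369, 1549.8 and 1937 CPM in PBS-control. In cKOt kidneys 7 of 9 STZ libraries lay below every PBS library, and the highest STZ-cKOt value lay within the PBS-cKOt range. Slc22a12 was 1.30-fold lower in STZ-cKOt than in PBS-cKOt (−0.37 ± 0.10, edgeR adjusted p = 0.00802). The other contrasts did not pass, with −0.18 ± 0.10 for cKOt against control in STZ mice (edgeR adjusted p = 0.198), 0.02 ± 0.10 for the same in PBS mice (0.889) and −0.17 ± 0.10 for STZ against PBS in control kidneys (0.256). The first of these 3 passed when STZ-control 9 or STZ-cKOt 6 was left out (0.0484 and 0.0485). Exons of Slc22a12 share 682 bases, 30.1% of its length, with Nrxn2 on the opposite strand, and the strand setting of the counting is not given in the sources used here, so reads there cannot be assigned with certainty.

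Slc22a13 (ENSMUSG00000074028, chromosome 9, 119192974 to 119209098) encodes Oat10, which exchanges urate and nicotinate in human and rat cells. It lies within the span of Slc22a14 as annotated, but no exon base is shared. Its lowest, median and highest values were 43.3, 51.3 and 69.7 CPM in STZ-cKOt, against 50.5, 55.4 and 64.2 CPM in STZ-control. They were 47.6, 59.2 and 78.7 CPM in PBS-cKOt, against 45.8, 50.9 and 59.9 CPM in PBS-control. It was the only one of the 9 genes called higher in any contrast, 1.19-fold in PBS-cKOt against PBS-control (0.25 ± 0.09, edgeR adjusted p = 0.0393), where 4 of 9 PBS-cKOt libraries lay above every PBS-control library. That call was lost with limma voom (adjusted p = 0.117), without the 4 libraries that stood apart (0.113), and when any 1 of PBS-control 1, 2, 4 or 6 or PBS-cKOt 1, 3, 6 or 8 was left out (0.0549 to 0.102). The other contrasts were −0.08 ± 0.09 for cKOt against control in STZ mice (edgeR adjusted p = 0.565), −0.24 ± 0.09 for STZ against PBS in cKOt (0.0737) and 0.09 ± 0.09 in control kidneys (0.538). In cKOt the STZ contrast passed when PBS-cKOt 9 or STZ-cKOt 2 was left out (0.0184 and 0.0280).

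Slc22a19 (ENSMUSG00000024757, chromosome 19, 7673061 to 7711310) encodes Oat5, an organic anion transporter that carries sulfated steroids in rodents. It stood at 60.9, 81.8 and 121 CPM in STZ-cKOt (lowest, median and highest), against 61.5, 85.4 and 107 CPM in STZ-control. The values were 76.7, 108 and 151 CPM in PBS-cKOt, against 71.0, 89.2 and 114 CPM in PBS-control. No contrast passed. The largest differences were 0.33 ± 0.13 for cKOt against control in PBS mice (edgeR adjusted p = 0.0624) and −0.31 ± 0.13 for STZ against PBS in cKOt mice (0.121). The first passed in a fit to the 2 groups alone (0.0388), without the 4 libraries that stood apart (0.0216) and when PBS-control 9, PBS-cKOt 3, PBS-cKOt 9 or STZ-cKOt 7 was left out (0.0288 to 0.0473). The second passed with limma voom (adjusted p = 0.0406). The 4 groups overlapped throughout.

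Of the 9 genes, 7 had a lower log2 fold change of STZ against PBS in cKOt than in control kidneys, the exceptions being Slc22a5 and Slc22a4. The difference of these 2 effects, the interaction, was tested itself. None of the 9 genes passed (edgeR, 0 of 9; 0.0448% of all tested genes did, 7 of 15637), nor did any with DESeq2 or limma voom. At an unadjusted p under 0.05 stood 2 of the 9, as did 1944 of all tested genes. They were Slc22a7, with an interaction of −0.75 ± 0.29 (edgeR adjusted p = 0.364), and Slc22a13, with −0.33 ± 0.13 (edgeR adjusted p = 0.364). Without STZ-control 9 the interaction of Slc22a7 was −0.89 (edgeR adjusted p = 0.0924). The effect of genotype was therefore not shown to differ between STZ and PBS mice for any of the 9. Contrasts that share a group share its libraries and are not independent.

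Between genes, levels were compared per kilobase of exon (FPKM, computed from the CPM). Slc22a12, Slc22a6 and Slc22a2 led the order in all 4 groups, in that sequence, and Slc22a12 and Slc22a6 stood clear of the next gene in each. Slc22a12 averaged 557 ± 114 FPKM in STZ-cKOt, 631 ± 93.3 in STZ-control, 722 ± 59.0 FPKM in PBS-cKOt and 710.05 ± 76.3 FPKM in PBS-control (SD, n = 9 each). Slc22a6 averaged 199 ± 21.5 FPKM in STZ-cKOt, 243 ± 27.0 in STZ-control, 226 ± 27.1 FPKM in PBS-cKOt and 262 ± 28.0 FPKM in PBS-control. Slc22a2 followed with 122 ± 15.9 FPKM in STZ-cKOt, 143 ± 19.2 in STZ-control, 148 ± 12.7 FPKM in PBS-cKOt and 149 ± 15.4 FPKM in PBS-control. Its range overlapped that of the gene after it in STZ-control and PBS-control, and stood clear of it in STZ-cKOt and PBS-cKOt.

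The place of Slc22a8 differed between groups. It took place 6 of 9 in STZ-cKOt with 36.2 ± 6.96 FPKM, place 5 in STZ-control with 82.9 ± 18.8 FPKM, place 5 in PBS-cKOt with 57.9 ± 11.7 FPKM and place 4 in PBS-control with 111 ± 14.8 FPKM. With Slc22a7 and Slc22a5 it filled places 4 to 6 in every group, and within those places neighbours overlapped. The gene in place 6 stood clear of the next one in STZ-control, PBS-cKOt and PBS-control, and overlapped it in STZ-cKOt. The last 3 places were held by Slc22a4, Slc22a13 and Slc22a19. Slc22a4 stood before Slc22a13 in STZ-control and PBS-control and after it in STZ-cKOt and PBS-cKOt, with overlapping ranges in all 4. Slc22a19 was last in every group, between 15.7 ± 2.84 FPKM in STZ-control and 20.5 ± 4.66 in PBS-cKOt.

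Because Slc22a8 and Slc22a6 are neighbours, their ratio per kilobase was taken within each library. The median was 0.195 in STZ-cKOt, against 0.356 in STZ-control, and 0.256 in PBS-cKOt, against 0.436 in PBS-control. The highest ratio of STZ-cKOt was 0.2158 and the lowest of STZ-control 0.2164, and the highest of PBS-cKOt was 0.3598 and the lowest of PBS-control 0.3607. The ratio was lower in cKOt in both pairs, without overlap and with almost no gap. The lowest STZ-control ratio was that of the library labelled STZ-control 2, and without it the lowest was 0.2482 and the median 0.369. For Slc22a5 over Slc22a4, also neighbours, the groups overlapped, with medians of 2.48 in STZ-cKOt, 2.76 in STZ-control, 2.28 in PBS-cKOt, and for PBS-control 2.59. The ratios were not tested.

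**Figure D3:**
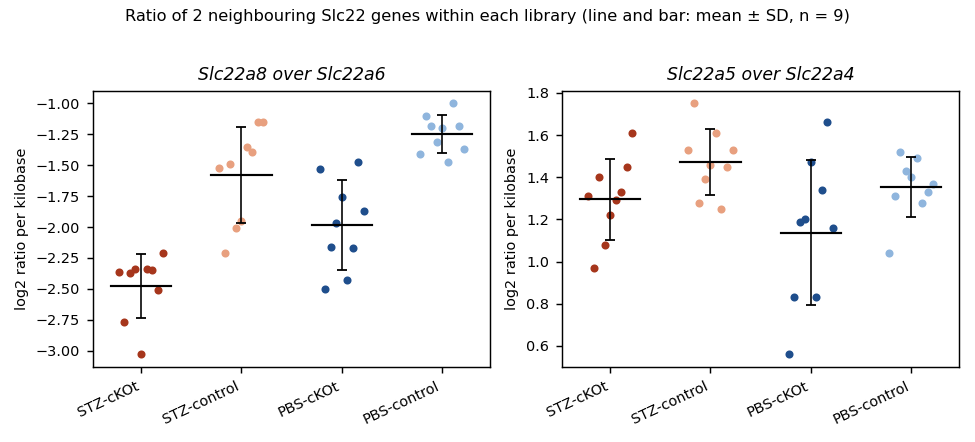
Log2 ratio per kilobase of Slc22 genes that lie close together on a chromosome, in each of 36 libraries; points are libraries, and the line and bar are the mean ± SD of 9 libraries. Slc22a8 over Slc22a6 averaged −2.48 ± 0.26 in STZ-cKOt, −1.58 ± 0.39 in STZ-control, −1.98 ± 0.36 in PBS-cKOt, and for PBS-control −1.25 ± 0.15, while the libraries of Slc22a5 over Slc22a4 overlapped between groups.

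Of 18 other Slc22 genes listed, 14 were tested. In STZ mice 5 were lower and 2 higher in cKOt, and in PBS mice 3 were lower and 3 higher, each against control. With STZ, 5 were lower and 1 higher in cKOt kidneys and 3 were lower in control kidneys. Of all tested genes, 19.6%, 23.4%, 11.6% and 12.3% were called in either direction in these 4 contrasts. Their median log2 fold changes were −0.15, −0.07, 0.01 and −0.09 in these 4 contrasts. Several lie in the cluster on chromosome 19 that runs from Slc22a19 to Slc22a6, and neighbours there moved in opposite directions. Slc22a26 averaged 8.41 ± 3.10 CPM in STZ-cKOt, against 25.9 ± 5.59 CPM in STZ-control (−1.62 ± 0.20, edgeR adjusted p = 4.69e-08), and 11.4 ± 4.24 CPM in PBS-cKOt, against 30.6 ± 8.93 CPM in PBS-control (−1.43 ± 0.20, edgeR adjusted p = 3.86e-07). Slc22a29 averaged 8.66 ± 3.53 CPM in STZ-cKOt, against 2.56 ± 0.713 CPM in STZ-control (1.74 ± 0.23, edgeR adjusted p = 3.08e-07). Slc22a27, between them, was a low gene that was higher in STZ-cKOt (1.71 ± 0.28; 1.32 ± 0.618 CPM, against 0.395 ± 0.172 CPM in STZ-control) and in PBS-cKOt (1.79 ± 0.32). These genes are close paralogs, and reads that map to more than 1 place, between 30.9% and 42.8%, were not assigned, so their counts are uncertain.

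Slc22a28 and Slc22a30, in the same cluster, were lower with STZ in both genotypes. Slc22a30 averaged 167 ± 37.5 CPM in STZ-cKOt, against 291 ± 59.5 CPM in PBS-cKOt (−0.80 ± 0.12, edgeR adjusted p = 1.41e-05), and 202 ± 32.3 CPM in STZ-control, against 307 ± 36.6 CPM in PBS-control (−0.60 ± 0.12, edgeR adjusted p = 8.04e-04). Slc22a21, which lies between Slc22a5 and Slc22a4, averaged 5.02 ± 0.761 CPM in STZ-cKOt, 5.24 ± 1.26 in STZ-control, 4.85 ± 1.00 CPM in PBS-cKOt and 4.99 ± 0.618 CPM in PBS-control and passed in none. Slc22a23, an orphan member, was lower in STZ-cKOt (−0.31 ± 0.09, edgeR adjusted p = 0.0128) and in PBS-cKOt (−0.61 ± 0.09, edgeR adjusted p = 2.31e-06).

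**Figure D4:**
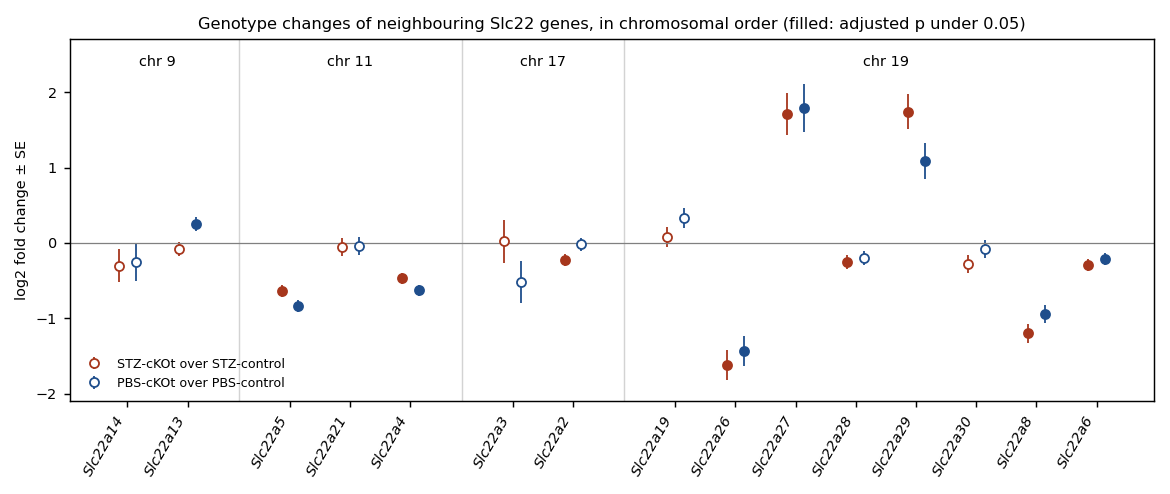
Log2 fold change ± SE of cKOt over control for the Slc22 genes that lie next to each other on 4 chromosomes, in chromosomal order, in STZ mice and in PBS mice; filled points had an edgeR adjusted p under 0.05. On chromosome 19 Slc22a26 lay at −1.62 and −1.43 and Slc22a27 at 1.71 and 1.79, and on chromosome 11 Slc22a21 lay near 0 between Slc22a5 and Slc22a4.

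Genes that work with these transporters were counted from lists, and paired values below are for STZ mice and then for PBS mice. Between genotypes, 19.6% of all tested genes were called in either direction in STZ mice and 23.4% in PBS mice. Between treatments, 11.6% were called in cKOt and 12.3% in control kidneys. These shares stand beside each list count below, and no list was tested as a set. Of 9 tested genes of carnitine synthesis and shuttle, 5 were lower and 1 higher in STZ-cKOt against STZ-control, and 6 were lower in PBS-cKOt against PBS-control. Slc25a20, the carnitine and acylcarnitine carrier of mitochondria, averaged 34.9 ± 4.65 CPM in STZ-cKOt, against 52.9 ± 4.94 CPM in STZ-control, and 37.8 ± 5.22 CPM in PBS-cKOt, against 51.9 ± 6.33 CPM in PBS-control (−0.60 ± 0.08 and −0.46 ± 0.08; edgeR adjusted p = 2.36e-07 and 2.60e-05). Aldh9a1, an enzyme of carnitine synthesis, stood at −0.42 ± 0.05 and −0.59 ± 0.05. Crat, carnitine acetyltransferase, stood at −0.43 ± 0.05 and −0.36 ± 0.05, and Cpt2, the palmitoyltransferase of the inner membrane, at −0.50 ± 0.06 and −0.34 ± 0.06, all past the threshold. Bbox1, the last enzyme of carnitine synthesis, was higher in STZ-cKOt (1.31 ± 0.27, edgeR adjusted p = 3.68e-04), at 3.84 ± 1.27 CPM against 1.53 ± 0.848 CPM in STZ-control.

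Among 10 other carriers of organic ions and drugs, 4 were lower and 2 higher in STZ-cKOt, and 4 were lower and 1 higher in PBS-cKOt, each against its control. Slc17a1, a phosphate and urate carrier, averaged 459 ± 35.4 CPM in STZ-cKOt, against 656 ± 52.6 CPM in STZ-control, and 602 ± 55.6 CPM in PBS-cKOt, against 759.5 ± 77.6 CPM in PBS-control. It was lower in both (−0.52 ± 0.06 and −0.33 ± 0.06; edgeR adjusted p = 3.39e-08 and 8.29e-05), and so was its paralog Slc17a3 (−0.33 ± 0.07 and −0.32 ± 0.07). Both were also lower with STZ in each genotype. Abcb1a was lower in cKOt under both treatments (−0.86 ± 0.15 and −0.81 ± 0.15), and its paralog Abcb1b was higher (0.95 ± 0.16 and 0.97 ± 0.17). They encode forms of the efflux pump P-glycoprotein. Slc47a1, which encodes Mate1, the exchanger that passes cations on to the urine, was lower with STZ in cKOt (−0.41 ± 0.06, edgeR adjusted p = 1.41e-05) and in control kidneys (−0.33 ± 0.06, edgeR adjusted p = 3.56e-04). In the same contrasts Abcc4, an efflux pump for organic anions, was higher (0.89 ± 0.17 in cKOt and 0.62 ± 0.17 in control).

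Of 7 genes of dicarboxylate supply, 1 was lower and 2 higher in STZ-cKOt, and 3 were lower and 1 higher in PBS-cKOt, each against its control. Slc13a3, which brings in the dicarboxylates that Oat1 and Oat3 exchange, averaged 468 ± 93.7 CPM in STZ-cKOt, against 697 ± 59.5 CPM in STZ-control, and 563 ± 51.6 CPM in PBS-cKOt, against 794 ± 74.4 CPM in PBS-control (−0.58 ± 0.08 and −0.49 ± 0.08; edgeR adjusted p = 1.64e-06 and 2.08e-05). Of 8 tested genes of urate handling, 2 were lower and 3 higher in STZ-cKOt and 2 were lower and 1 higher in PBS-cKOt. Of 4 scaffold genes of the brush border, 2 were lower in each genotype contrast. Pdzk1, whose PDZ domains bind Urat1 and Octn2 at the apical membrane, averaged 937 ± 57.9 CPM in STZ-cKOt, against 1112 ± 98.6 CPM in STZ-control, and 1006 ± 68.3 CPM in PBS-cKOt, against 1315 ± 80.0 CPM in PBS-control. It was lower in both (−0.25 ± 0.05 and −0.39 ± 0.05; edgeR adjusted p = 5.39e-04 and 3.32e-07).

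Among 11 nuclear factors of transporter genes, 2 were lower and 2 higher in each genotype contrast. Of all tested genes, 19.6% were called in STZ mice and 23.4% in PBS mice. Hnf4a stood at −0.15 ± 0.07 and −0.11 ± 0.07, neither past the threshold, and was lower with STZ in cKOt (−0.29 ± 0.07, edgeR adjusted p = 0.00439) and in control kidneys (−0.26 ± 0.07, edgeR adjusted p = 0.0115). Of the PAR-bZIP factors, which bind D-boxes, Dbp was lower in cKOt under both treatments (−2.15 ± 0.19 and −2.21 ± 0.19), and so was Tef (−0.90 ± 0.07 and −1.19 ± 0.08). Hlf stood at 0.04 ± 0.07 in STZ-cKOt, not past the threshold, and was lower in PBS-cKOt (−0.21 ± 0.07, edgeR adjusted p = 0.0329). Nfil3, a repressor at the same sites, was higher in both (2.61 ± 0.24 and 3.47 ± 0.26). The contrasts in STZ mice include the library labelled STZ-control 2, with Dbp at 22.1 CPM and Nfil3 at 11.97 CPM. They are not given without it, so their sizes cannot be set against those in PBS mice.

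Of 13 proximal tubule markers, 3 were higher and 2 lower in STZ-cKOt against STZ-control, and 2 were lower in PBS-cKOt against PBS-control. With STZ, 1 was higher and 2 lower in cKOt and 1 was lower in control kidneys. Their summed level ran from 9051 to 13494 CPM in STZ-cKOt, 8213 to 12777 in STZ-control, 9339 to 14454 CPM in PBS-cKOt and 11827 to 14012 CPM in PBS-control. Of 8 markers of the straight segment, where several Slc22 genes are expressed, 5 were lower and 2 higher in STZ-cKOt and 3 were lower and 1 higher in PBS-cKOt, each against its control, and 5 were lower with STZ in each genotype. Their summed level ran from 6879 to 8595 CPM in STZ-cKOt and 8611 to 11377 in STZ-control, and from 9770 to 11760.0 in PBS-cKOt and 12131 to 14282 in PBS-control. These ranges did not overlap between genotypes within a treatment, nor between treatments within a genotype. Of single tested genes, 3.5% did not overlap between genotypes in STZ mice and 5.12% in PBS mice. Between treatments the shares were 0.876% in cKOt and 1.22% in control kidneys. No such share was counted for sums of 8 genes. Slc7a13 stands both in this list and in the list of genes with higher expression in male kidneys. None of these 21 markers stood at or under 3 reads in every library. The part of the straight segment in the results for the Slc22 genes was not tested.

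Of 11 genes with higher expression in male mouse kidneys, 9 were lower and 1 higher in STZ-cKOt, and 7 were lower and 1 higher in PBS-cKOt, each against its control, and 8 were lower with STZ in each genotype. Their summed level ran from 14831 to 29487 CPM in STZ-cKOt, 20017 to 51664 in STZ-control, 25952 to 53389 CPM in PBS-cKOt and 32637 to 53826 CPM in PBS-control. Cyp4b1, one of them, averaged 890.2 ± 280.5 CPM in STZ-cKOt, 2263 ± 339 in STZ-control, 2071 ± 250.2 CPM in PBS-cKOt and 3504 ± 348 CPM in PBS-control. Of 8 genes with higher expression in female kidneys, 3 were lower and 3 higher in STZ-cKOt and 2 were lower and 3 higher in PBS-cKOt. With STZ, 3 of them were lower and 2 higher in cKOt and 1 was higher in control kidneys. Their summed level ran from 386.29 to 1234.3 CPM in STZ-cKOt, against 798.56 to 1333.4 CPM in STZ-control, with medians of 577.96 and 1058.4 CPM. It ran from 465.77 to 826.7 CPM in PBS-cKOt, against 873.75 to 1372.4 CPM in PBS-control, without overlap. The summed level was thus lower in PBS-cKOt for this list too. Of 7 tested markers of injured proximal tubule, 4 were higher with STZ in each genotype, and 1 was lower in STZ-cKOt and 2 lower and 1 higher in PBS-cKOt against control. Of 8 macrophage markers, 6 were lower in STZ-cKOt and 3 in PBS-cKOt, each against its control, with a summed level of 193 to 230.2 CPM in STZ-cKOt, against 228 to 385 CPM in STZ-control, and 172 to 228 CPM in PBS-cKOt, against 211 to 306 CPM in PBS-control. Of 7 markers of fibroblasts and mural cells, 1 was lower in STZ-cKOt and 5 in PBS-cKOt, and with STZ 4 were higher in cKOt and 2 in control kidneys. Their summed level ran from 218 to 287 CPM in STZ-cKOt, against 250.5 to 349 CPM in STZ-control, and from 151 to 221 CPM in PBS-cKOt, against 169 to 288 CPM in PBS-control. Of 6 markers of the distal convoluted and connecting tubule, 3 were higher and 1 lower in STZ-cKOt and 2 were higher in PBS-cKOt, each against its control, and with STZ 3 were higher and 1 lower in cKOt and 4 were higher in control kidneys. Of 5 intercalated cell markers, 1 was higher and 1 lower in STZ-cKOt and 3 were higher in PBS-cKOt, each against its control, and with STZ 1 was higher in control kidneys. Of 5 tested fat tissue markers, 1 was lower in PBS-cKOt against PBS-control, and with STZ 1 was lower in cKOt and 4 were lower in control kidneys, where their median log2 fold change was −3.47. The summed level of the fat markers ran from 0.271 to 18.4 CPM in STZ-cKOt, 0.517 to 13.9 CPM in STZ-control, 0.104 to 47.7 CPM in PBS-cKOt and 3.12 to 162 CPM in PBS-control. Whether these genes have a part in the levels of the Slc22 genes was not tested.

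Within groups, the 9 genes did not vary as 1 set. After the group mean was taken away, log2 CPM over the 36 libraries correlated between Slc22a2 and Slc22a6 (Pearson r = 0.76, Spearman rho = 0.79), between Slc22a2 and Slc22a7 (0.73 and 0.73) and between Slc22a6 and Slc22a12 (0.67 and 0.61). Slc22a8 correlated with Slc22a6 at r = 0.11 (rho = 0.12), although they are neighbours and both lower in cKOt, and Slc22a5 with Slc22a4 at −0.02 (rho = 0.09). These values describe 36 mice, whose genes share library and depth, and carry no test.

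For each of the 9, the 2 genes most like it by that measure were as follows. They were taken from all tested genes except predicted ones, whose symbols start with Gm or end in Rik. Slc22a2 was most like Car4 (r = 0.89) and Proc (0.88), Slc22a6 most like Galns (0.87) and Ggt1 (0.85), and Slc22a12 most like Ppp1r16a (0.86) and Pth1r (0.85). For Slc22a7 they were Lpl (0.87) and Bdh1 (0.83), for Slc22a5 Steap2 (0.80) and Dnajc6 (0.78), and for Slc22a19 its neighbour Slc22a26 (0.81) and Cyp7b1 (0.78). For Slc22a8 they were Miox (0.73) and Med9os (0.73), for Slc22a4 Aspa (0.73) and Dnase1 (0.68), and for Slc22a13 Dap (0.73) and Krt7 (0.73). With the 2 libraries farthest from the median left out, these values were between 0.55 and 0.84.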

How the data were processed

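Kidney mRNA was sequenced from TruSeq Stranded mRNA libraries made with 500 ng of total RNA, per the labels' protocols. The authors deposited whole-number read counts per Ensembl gene and library. Reads were handled with HTSeq 0.9.1, STAR 2.5.3a and cutadapt 1.8 on GRCm38, per the submitters' processing notes, and for the annotation release and the strand setting these sources give nothing. The 5 rows that name no gene were left out of library sizes. Libraries held a median of 20.15 M assigned reads (16.9 M to 22.3 M), of which between 12.1% and 25.57% were mitochondrial. Reads without a gene were between 3.64% and 6.38%.

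Symbols, coordinates and exon lengths came from GENCODE M21, which matched 53620 of 53715 genes. Counts were filtered with filterByExpr, scaled by TMM and tested with the quasi-likelihood test of edgeR 4.0.16 in R 4.3.3, with 4 group means over 36 libraries and 32 residual degrees of freedom. P-values were adjusted by Benjamini-Hochberg over 15637 genes, with a threshold of 0.05. The procedure was tested on simulated data. CPM used TMM library sizes, and FPKM divided CPM by exon length. Promoters came from RefSeq.

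The labels number 9 samples in each group, and p-values measure the spread between these samples. The members, gene lists and alternatives were chosen with earlier results of these data known. The plan was to name all 9 members, the 2 genes most like each, and genes with the smallest adjusted p in a contrast. These were 4 of the other Slc22 genes and 4 of each list. For the lists the plan was not carried through. Several lists are given by counts or sums alone, and from others fewer genes are named, picked with their values known. Other genes were named after their values were seen. Leaving out single libraries, or the 4 that stood apart, was chosen after seeing the data. limma 3.58.1 and DESeq2 1.42.0 were alternatives. Tmlhe and Slc22a13b were not analysed here.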

Additional observations from a re-analysis of the deposited data

Results flagged for a closer look

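Of 36 sets of 9 libraries, 1 for each gene and group, 4 held a library whose gap to the nearest other exceeded 0.493 of the group's range, the 95% critical value of Dixon's test for 9 samples. Chance gives about 1 in 20 such sets. Slc22a4 was 59.8 CPM in the library labelled STZ-control 2, the lowest of its group, with a gap of 0.539 of the range. The same gene was 109.4 CPM in PBS-control 1, the highest of its group, with a gap of 0.605. Slc22a6 was 990.3 CPM in STZ-cKOt 6, the highest of its group, with a gap of 0.552. Slc22a7 was 34.5 CPM in STZ-control 9, the lowest of its group, with a gap of 0.553.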

How the results depend on the processing

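Of 396 effects of single Slc22 genes recomputed under 9 alternative settings, 382 kept their side of the threshold, 11 lost a call and 3 gained one. No called effect changed sign, and 3 effects that were not called did: Slc22a19 for genotype in STZ mice was −0.05 with limma voom, against 0.08, and Slc22a7 for genotype in PBS mice was −0.03 with the replicate block and −0.04 without the 4 libraries that stood apart, against 0.01. The calls that changed are given beside each gene, except that Slc22a13 in PBS mice also lost its call with the replicate number as a block (adjusted p = 0.0549). The calls of genotype for Slc22a8, Slc22a5 and Slc22a4 held in all of them. The 7 genes with an interaction became 20 with the DESeq2 Wald test (17 lower and 3 higher) and 15 with limma voom. The 2 Slc22 genes called for STZ in control kidneys became 1 without a filter on low counts, and 1 without STZ-control 7 and 8 and PBS-cKOt 1 and 3. Leaving out each library in turn gave between 3 and 19 genes with an interaction, 19 without STZ-control 9. It gave between 3 and 5 called Slc22 genes for genotype in PBS mice, between 5 and 7 in STZ mice, between 4 and 5 for STZ in cKOt and between 1 and 2 in control kidneys. The mean level of Slc22a5 in PBS-control was 250.3 CPM on unscaled library totals.

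Replicate numbers were shared between groups, but nothing in the labels pairs them. Over 54 pairs with the same number, deviations from the group means correlated at a median of 0.018 (−0.194 to 0.356), and 5 of 36 libraries correlated best with their own number. With the replicate block, 3738 genes and 4 Slc22 genes were called for genotype in PBS mice, 3128 and 6 in STZ mice, 1914 and 4 for STZ in cKOt, 2039 and 2 in control kidneys, and 5 and 0 for the interaction.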
